A study of Mus musculus with 9 samples.

Results

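Histone genes were examined across CD4+ T cells before culture and in 2 kinds of induced regulatory T cells (Treg cells). Members were all rows of the deposited table whose gene symbol begins with Hist1h to Hist4h, H2af or H3f3. They numbered 51 of 14912 rows, of which 44 were cluster genes (Hist symbols) and 7 were variant genes (H2af and H3f3 symbols). The study measured RNA in 9 libraries made by a modified CEL-Seq method, with 3 libraries in each of 3 groups. All cells came from mice of the strain B6.Cg-Foxp3tm2(EGFP)Tch/J, labelled hemizygous for the allele Foxp3 tm2Tch, an eGFP reporter at Foxp3, whose product is the defining transcription factor of Treg cells. The mTO-iTreg cells were eGFP-positive CD4+ T cells kept until day 5 together with mouse colorectal cancer organoids, which are miniature three-dimensional tumour cultures, and received IL-2 (20 U/ml), anti-CD3 and anti-CD28 (1 µg/ml each). The TGFβ-iTreg cells were eGFP-positive CD4+ T cells on day 5 that had received TGFβ (10 ng/ml), more IL-2 (300 U/ml) and both antibodies at that dose. The day 0 cells were eGFP-negative CD4+ T cells with no treatment listed. Culture, sorting for eGFP and added agents therefore cannot be told apart in the comparisons with day 0, and IL-2 dose, TGFβ and organoids cannot be told apart between the iTreg groups.

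Histones are the proteins around which DNA is wrapped. H2A, H2B, H3 and H4 form the core of the nucleosome, and H1 binds the DNA between nucleosomes. The cluster genes supply most histone protein during DNA replication, and their mRNAs usually end in a conserved stem-loop, bound by the stem-loop binding protein SLBP, in place of a poly(A) tail. Variant histones are made throughout the cell cycle from ordinary polyadenylated mRNAs and are placed into chromatin by dedicated chaperones. CEL-Seq copies RNA from its poly(A) tail, so the counts of cluster genes come from whichever of their transcripts could be primed, and the share that this captured was not measured.

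The stem-loop was searched for because it separates the gene classes and bears on what the assay can read. The search took the 100 bases after the stop codon in GENCODE M21 transcripts on GRCm38, on the sense strand, for GG followed by 4 more stem bases, a loop of 4 bases starting with T, and the reverse complement of the 6 stem bases. It was found in 33 of 43 cluster genes with a coding model, at 21 to 54 bases after the stop codon. Among all 21677 protein-coding genes it was found in 67, or 0.309%, and 20 of these have symbols outside the member rule. The same search on the reverse strand found 25. Of the 10 cluster genes with no match, 7 have models that end within 20 bases of the stop codon. Only 1 of 7 variant genes held a match, H2afx. Capitals mark the stem-loop in the following examples, written as DNA with 5 flanking bases on each side.
Hist1h1d stem-loop (chr13:23555787-23555802, plus strand): caaacGGCTCTTTTCAGAGCCaccca
Hist1h1e stem-loop (chr13:23621782-23621797, minus strand): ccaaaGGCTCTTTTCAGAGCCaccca
Hist3h2a stem-loop (chr11:58955172-58955187, plus strand): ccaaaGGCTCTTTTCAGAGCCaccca
Hist2h3c1 stem-loop (chr3:96247327-96247342, plus strand): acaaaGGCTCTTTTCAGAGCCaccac
Hist1h4d stem-loop (chr13:23581950-23581965, plus strand): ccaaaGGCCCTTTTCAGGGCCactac
H2afx stem-loop (chr9:44335240-44335255, plus strand): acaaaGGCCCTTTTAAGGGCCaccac
The 33 cluster genes carried 7 distinct versions, the most frequent being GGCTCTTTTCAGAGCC in 17 genes, as in Hist1h1d, Hist1h1e, Hist3h2a and Hist2h3c1 above. All 3 H1, 6 H2A, 7 H2B and 8 H3 genes with a match had stems starting GGCTCT. The 9 H4 genes had GGCCCT in 8 cases and GGTCCT in Hist1h4b, and H2afx had GGCCCT.

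The annotated transcript ran more than 100 bases past the stem-loop in 20 cluster genes, by 151 to 4884 bases, and 16 of these 20 had enough signal to be tested. In the other 13 it ended 3 to 74 bases past the stem-loop, and 4 of these 13 were tested. This is a count of gene models and not a measurement of which transcript end was read. Enough signal means that 3 or more of the 9 libraries reached a value of 5, where values are normalized counts, that is, counts divided by 1 size factor per library. By that filter 26 of 44 cluster genes and all 7 variants were tested. The 18 cluster genes not tested had 1 to 41 counts each over all libraries, 216 in sum, and comprised 4 H2A, 5 H2B, 6 H3 and 3 H4 genes. These H2B genes include Hist3h2bb-ps, which is annotated as a processed pseudogene. Hist1h2ab and Hist1h2bb passed the filter through mTO-iTreg libraries alone.

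Library depth was 2078223 to 9944952 counts, and a single count was worth 0.494 to 2.688 normalized counts. The labels do not say whether libraries of a group came from separate animals or cultures, so every p-value measures only the spread between these libraries. The mTO-iTreg libraries carry sample codes of another form than the other 6, and any batch behind these codes cannot be told apart from the group. The eGFP transcript was at 262 to 462 in mTO-iTreg, 588 to 695 in TGFβ-iTreg and 26.3 to 86.5 in day 0 libraries. Foxp3 itself ran the other way between the iTreg groups, at 37.2 to 81 in mTO-iTreg and 14.8 to 19.7 in TGFβ-iTreg libraries. It was at 0 to 8.77 in day 0 libraries. Of 9 T cell markers 8 were in the table, detected in every group, with sums of 22877 to 27265 in mTO-iTreg, 21251 to 21654 in TGFβ-iTreg and 31753 to 33985 in day 0 libraries. Of 11 colorectal epithelial markers 6 were in the table, with sums of 43.7 to 124 in mTO-iTreg, 135 to 141 in TGFβ-iTreg and 18.8 to 24.3 in day 0 libraries. Day 0 replicate 3 stood apart, with a sum over 7 myeloid and antigen-presenting markers of 6156, against 1167 in the lowest day 0 library, and with an Xist level of 212, against 3.51 and 0 in the other day 0 libraries. Xist was at 314 to 401 in mTO-iTreg and at 0 to 70.6 in TGFβ-iTreg libraries. Every mTO-iTreg library thus lay above all others in Xist, and any difference between animals behind this cannot be told apart from the group. The part of these differences in the results on histones was not tested.

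The variant genes held 168276 counts over all libraries, against 5615 for the cluster genes, and their differences had smaller errors. H2afz and H2afv were higher in mTO-iTreg and in TGFβ-iTreg cells than in day 0 cells, and H2afx was higher in TGFβ-iTreg than in day 0 cells. H2afy was higher, and H2afj, H3f3a and H3f3b were lower, in mTO-iTreg cells than in each of the other groups. In mTO-iTreg against day 0 cells, 3 of 7 variants rose and 3 fell (adjusted p under 0.05 by limma over all tested genes), where 33.9% of all 10983 genes passed, 19.4% upward and 14.5% downward. In mTO-iTreg against TGFβ-iTreg cells 1 rose and 3 fell, where 26.6% of all genes passed, 14.9% upward and 11.8% downward. In TGFβ-iTreg against day 0 cells 3 rose and none fell, where 18.6% of all genes passed, 9.78% upward and 8.8% downward. The median log2 difference of the 7 variants was 0.63, -0.46 and 0.08 in that order, beside 0.09, 0.13 and -0.02 over all genes tested. Both comparisons with day 0 share the day 0 libraries.

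H2afz (chr3:137864487-137866922, GRCm38, as for all gene positions given here) and H2afv (chr11:6427229-6444443) encode the forms of H2A.Z, a variant placed at promoters and enhancers. H2afz had 4821, 4368 and 4672 normalized counts in mTO-iTreg libraries, 5593, 4974 and 4964 in TGFβ-iTreg libraries and 2030, 2183 and 2340 in day 0 libraries. Every iTreg library lay above every day 0 library. The level was 2.12-fold higher in mTO-iTreg than in day 0 cells (log2 difference 1.08 ± 0.11, SE; adjusted p = 6.1e-06) and 2.37-fold higher in TGFβ-iTreg than in day 0 cells (1.24 ± 0.11, adjusted p = 8.6e-06). Between mTO-iTreg and TGFβ-iTreg cells the log2 difference was -0.16 with a 95% interval of -0.39 to 0.06 (adjusted p = 0.28). H2afv had 790, 482 and 816 in mTO-iTreg, 701, 781 and 684 in TGFβ-iTreg and 328, 352 and 381 in day 0 libraries. Its iTreg libraries again lay above all day 0 libraries, with mTO-iTreg replicate 2 the lowest of them. H2afv was 1.97-fold higher in mTO-iTreg (adjusted p = 0.0019) and 2.04-fold higher in TGFβ-iTreg cells (adjusted p = 0.0023) than in day 0 cells. Its log2 difference between mTO-iTreg and TGFβ-iTreg cells was -0.09, with a 95% interval of -0.50 to 0.32.

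H2afx (chr9:44334694-44336077) encodes H2A.X, which is phosphorylated around DNA breaks, and its mRNA is known from human cells to exist with either kind of end. It had 246, 175 and 294 normalized counts in mTO-iTreg, 335, 303 and 325 in TGFβ-iTreg and 193, 113 and 156 in day 0 libraries. The TGFβ-iTreg libraries lay above all others, while mTO-iTreg replicate 2 lay below day 0 replicate 1. H2afx was 2.08-fold higher in TGFβ-iTreg than in day 0 cells (log2 difference 1.09 ± 0.24, SE; adjusted p = 0.0071), which did not pass without the shallowest day 0 and TGFβ-iTreg libraries (day 0 replicate 2 and TGFβ-iTreg replicate 1; adjusted p = 0.072). Between mTO-iTreg and day 0 cells the log2 difference was 0.63 ± 0.24 and did not pass (adjusted p = 0.061). It passed without mTO-iTreg replicate 2 (adjusted p = 0.022), without day 0 replicate 1 (adjusted p = 0.032) and with equal library totals (adjusted p = 0.015).

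H2afy (chr13:56073619-56136361) encodes macroH2A1, an H2A with a large additional domain that is enriched on silenced chromatin and on the inactive X chromosome. It had 5390, 5313 and 6313 normalized counts in mTO-iTreg, 2784, 2669 and 2537 in TGFβ-iTreg and 2688, 2075 and 2885 in day 0 libraries. The mTO-iTreg libraries lay above all 6 others, and the TGFβ-iTreg and day 0 libraries overlapped. H2afy was 2.22-fold higher in mTO-iTreg than in day 0 cells (log2 difference 1.16 ± 0.13, SE; adjusted p = 2e-05) and 2.13-fold higher than in TGFβ-iTreg cells (1.09 ± 0.13, adjusted p = 5.4e-05). The log2 difference between TGFβ-iTreg and day 0 cells was 0.08, with a 95% interval of -0.21 to 0.36. Counts are of the whole gene, so the splice forms of macroH2A1 cannot be told apart.

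H2afj (chr6:136808244-136810074) encodes H2A.J, a variant known from human cells to accumulate in senescence. It had 419, 332 and 278 normalized counts in mTO-iTreg, 1048, 829 and 768 in TGFβ-iTreg and 837, 876 and 1118 in day 0 libraries. The mTO-iTreg libraries were all below the other 6, which overlapped. The level in mTO-iTreg cells was 0.364 times that in day 0 cells (log2 difference -1.47 ± 0.18, SE; adjusted p = 4.9e-05) and 0.389 times that in TGFβ-iTreg cells (-1.37 ± 0.18, adjusted p = 0.00013).

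H3f3a (chr1:180800832-180813943) and H3f3b (chr11:116021912-116027962) encode the same protein, the replacement variant of H3, which is deposited by the HIRA complex and by DAXX with ATRX. H3f3a had 2185, 1915 and 2361 normalized counts in mTO-iTreg, 4718, 4346 and 4209 in TGFβ-iTreg and 4279, 4406 and 4229 in day 0 libraries. H3f3b had 2186, 2228 and 2171 in mTO-iTreg, 3638, 3632 and 3213 in TGFβ-iTreg and 4640, 3376 and 4300 in day 0 libraries. For both genes the mTO-iTreg libraries lay below all 6 others. H3f3a in mTO-iTreg cells was 0.50 times its level in day 0 cells (95% interval of the log2 difference -1.24 to -0.77, adjusted p = 1.4e-05) and 0.487 times that in TGFβ-iTreg cells (-1.04 ± 0.11, adjusted p = 1.7e-05). H3f3b was 0.535 times its day 0 level (-0.89 ± 0.12, adjusted p = 0.00012) and 0.628 times its TGFβ-iTreg level (-0.67 ± 0.12, adjusted p = 0.0016). Their summed level was 4348 ± 195.4 in mTO-iTreg, 7918 ± 469.7 in TGFβ-iTreg and 8410 ± 578.1 in day 0 cells (SD, n = 3 each). The log2 differences between TGFβ-iTreg and day 0 cells were 0.04 for H3f3a (95% interval -0.20 to 0.27) and -0.22 for H3f3b (95% interval -0.49 to 0.05).

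**Figure D1:**
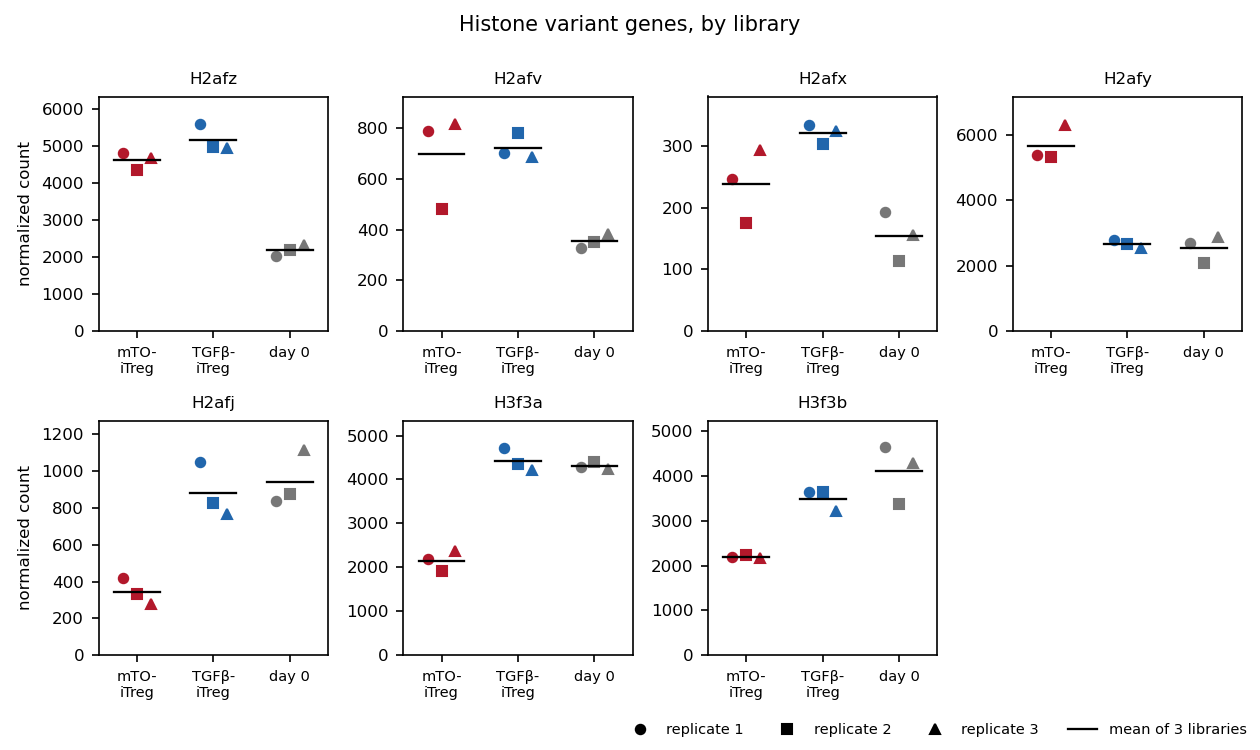
Normalized counts of the 7 variant genes (vertical axes from 0) in the 3 libraries of each group, with marker shapes for replicates and a line at the group mean. H2afy stands at 5313 to 6313 in mTO-iTreg libraries and at 2075 to 2885 in all others, while H3f3a stands at 1915 to 2361 in mTO-iTreg libraries and at 4209 to 4718 in all others.

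The cluster genes as a class did not follow 1 direction. Their summed level was 880.52, 415.63 and 704.12 normalized counts in mTO-iTreg, 368.94, 281.44 and 430.31 in TGFβ-iTreg and 580.72, 650.51 and 617.16 in day 0 libraries. All TGFβ-iTreg libraries lay below all day 0 libraries, and TGFβ-iTreg replicate 3 lay above mTO-iTreg replicate 2, so the iTreg groups overlapped. The mTO-iTreg libraries lay on both sides of day 0. The ratio of mean sums was 0.585 for TGFβ-iTreg over day 0, 1.85 for mTO-iTreg over TGFβ-iTreg and 1.08 for mTO-iTreg over day 0, the last falling to 0.909 without mTO-iTreg replicate 1. As a share of each library, cluster genes took 0.00841% to 0.0171% of counts in mTO-iTreg, 0.00575% to 0.00876% in TGFβ-iTreg and 0.00964% to 0.011% in day 0 libraries. No test was run on sums over members. In bulk samples, fewer cells of a kind and less RNA per cell cannot be told apart.

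In mTO-iTreg against day 0 cells, 6 of 26 tested cluster genes rose and 1 fell, a share of 26.9% beside the 33.9% of all genes. The 6 were 4 of the 5 H1 genes, Hist1h2ab and Hist1h2bb, and the gene that fell was Hist3h2a. Hist1h2ab and Hist1h2bb were tested at all because of their mTO-iTreg values, and without them 4 of 24 rose and 1 fell, or 20.8%. Leaving out any mTO-iTreg library removed Hist1h2ab and Hist1h2bb from the test, as the filter was applied again. The count of rises rests on few libraries: it was 0 without mTO-iTreg replicate 1, 3 without mTO-iTreg replicate 3 and 3 without day 0 replicate 1. It was 2 with limma-voom on recovered counts. The fall count was 2 without day 0 replicate 1 or replicate 2. In mTO-iTreg against TGFβ-iTreg cells 4 rose and 1 fell, or 19.2% beside 26.6%. Of 26 log2 differences 22 were above 0, beside 6085 of 10983 over all genes, and the median was 1.08 beside 0.13. Without Hist1h2ab and Hist1h2bb 3 of 24 rose and 1 fell, or 16.7%. The count of rises was 0 without mTO-iTreg replicate 1, without mTO-iTreg replicate 3 or without TGFβ-iTreg replicate 3. It was 2 without TGFβ-iTreg replicate 1, 1 without TGFβ-iTreg replicate 2, 1 without day 0 replicate 1 and 7 without day 0 replicate 2. In TGFβ-iTreg against day 0 cells none rose and 2 fell, or 7.69% beside 18.6%, with a median log2 difference of -0.44 beside -0.02. The falls numbered 3 without mTO-iTreg replicate 2, 0 without TGFβ-iTreg replicate 1 and 1 without any other library, and 1 gene, Hist2h3c1, rose without day 0 replicate 1. The 26 genes came through the filter partly by being high in some group, so these shares are a description only.

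Depth limits these counts. Between 34 and 37 of the 44 were detected in mTO-iTreg libraries, 21 to 32 in TGFβ-iTreg libraries and 21 to 32 in day 0 libraries, with the fewest in libraries of low depth. Sequence shared with other genes, whether near-identical copies or overlapping gene models, limits them too. Of the last 300 bases of each member's longest transcript, at least 1 window of 50 bases was identical to a transcript of another gene in 13 of 26 tested cluster genes and in 0 of 7 variants, so reads of those 13 may have been divided or lost in the authors' counting. Not given in the sources used here is how the counting treated strand.

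In mTO-iTreg against day 0 cells, the H1 linker histones were the cluster type with the most rises, 4 of 5. None of these rises passed without mTO-iTreg replicate 1. Against TGFβ-iTreg cells H1, H2B, H3 and H4 had 1 rise each, and in TGFβ-iTreg against day 0 cells no H1 gene rose. Hist1h1d (chr13:23553262-23560686) had 66.2, 48.4 and 48.5 normalized counts in mTO-iTreg, 29.5, 9.49 and 17.3 in TGFβ-iTreg and 19.3, 0 and 11.6 in day 0 libraries. All 3 mTO-iTreg libraries lay above the other 6. The level was 5.28-fold higher in mTO-iTreg than in day 0 cells (log2 difference 3.11 ± 0.92, SE; adjusted p = 0.018), and the adjusted p was 0.059 without mTO-iTreg replicate 1. Against TGFβ-iTreg cells the log2 difference was 1.60, with a 95% interval of -0.38 to 3.58 (adjusted p = 0.22). It passed there without day 0 replicate 2 (adjusted p = 0.034) and with limma-voom (adjusted p = 0.01).

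Hist1h1e (chr13:23620629-23622558) had 200, 72 and 83 normalized counts in mTO-iTreg, 71.3, 23.1 and 36.1 in TGFβ-iTreg and 21.1, 51.1 and 33.8 in day 0 libraries. The mTO-iTreg libraries lay above all others, replicate 1 furthest. It was 3.35-fold higher in mTO-iTreg than in day 0 cells (log2 difference 1.65 ± 0.52, SE; adjusted p = 0.025), which was lost without mTO-iTreg replicate 1 (0.12), without day 0 replicate 1 (0.089) and with limma-voom (adjusted p = 0.053). Against TGFβ-iTreg cells the log2 difference was 1.42 (adjusted p = 0.058), and it passed without TGFβ-iTreg replicate 1 (0.029), without day 0 replicate 2 (0.048) and with limma-voom (adjusted p = 0.012). All windows at its transcript's end occur in another gene's transcripts, and it overlaps Hist1h2be on the same strand, so the division of reads between these genes is uncertain.

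Hist1h1a (chr13:23763666-23764406) had 68.2, 16.7 and 36.5 normalized counts in mTO-iTreg, 7.38, 1.36 and 3.95 in TGFβ-iTreg and 0, 13.4 and 6.33 in day 0 libraries. The mTO-iTreg libraries were again above all others. It was 6.15-fold higher in mTO-iTreg than in day 0 cells (log2 difference 2.92 ± 0.98, SE; adjusted p = 0.034) and 9.58-fold higher than in TGFβ-iTreg cells (2.96 ± 0.98, adjusted p = 0.039). Without mTO-iTreg replicate 1 the adjusted p was 0.14 against day 0 and 0.15 against TGFβ-iTreg cells. Against day 0 the adjusted p was also 0.088 without mTO-iTreg replicate 3 and 0.13 without day 0 replicate 1, and 0.067 with limma-voom and 0.058 with no filter. Against TGFβ-iTreg it was 0.1 without mTO-iTreg replicate 3, 0.12 without TGFβ-iTreg replicate 2 and 0.082 without TGFβ-iTreg replicate 3, and 0.065 with a pseudocount of 0.5 and 0.067 with no filter.

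Hist1h1b had 24.6, 6.2 and 15.3 normalized counts in mTO-iTreg, 7.38, 6.1 and 3.95 in TGFβ-iTreg and 0, 0 and 2.11 in day 0 libraries. Day 0 libraries held 2 counts of it in all, so no fold is given, and it rose in mTO-iTreg against day 0 cells with an adjusted p of 0.0084 (0.059 without mTO-iTreg replicate 1 and 0.056 with limma-voom). Hist1h1c, the H1 gene that did not pass in any comparison, had 121, 60.8 and 81 in mTO-iTreg, 54.1, 37.3 and 114 in TGFβ-iTreg and 137, 105 and 110 in day 0 libraries. The groups overlapped throughout, and the log2 difference between mTO-iTreg and day 0 cells was -0.46, with a 95% interval of -1.32 to 0.40. Without TGFβ-iTreg replicate 3 it was lower in TGFβ-iTreg than in day 0 cells (adjusted p = 0.035, against 0.13 with all libraries).

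The promoters of Hist1h1d and Hist1h1e, which rose, and of Hist1h1c, which did not pass, are given below. They are the 250 bases before the RefSeq gene start on GRCm38.p6. For Hist1h1d that start lies inside the GENCODE gene position given above. Capitals mark matches on either strand to CCAAT (bound by NF-Y), TATAAA (the TATA box), ATTTGCAT (the octamer bound by Oct1), AAACACA (the H1 box) and TTTNNCGC (an E2F-like site), none of which contains another, although matches may overlap.
Hist1h1d promoter (chr13:23554782-23555031, plus strand): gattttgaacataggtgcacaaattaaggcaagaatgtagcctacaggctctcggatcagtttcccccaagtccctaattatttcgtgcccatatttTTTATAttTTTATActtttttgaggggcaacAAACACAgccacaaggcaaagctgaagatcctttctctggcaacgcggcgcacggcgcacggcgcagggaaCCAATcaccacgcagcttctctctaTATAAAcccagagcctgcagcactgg
Hist1h1e promoter (chr13:23622559-23622808, minus strand): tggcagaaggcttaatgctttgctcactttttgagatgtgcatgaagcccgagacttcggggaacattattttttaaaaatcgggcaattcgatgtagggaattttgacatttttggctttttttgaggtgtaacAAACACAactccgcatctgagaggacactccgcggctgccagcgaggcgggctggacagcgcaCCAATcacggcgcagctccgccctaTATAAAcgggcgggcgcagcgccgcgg
Hist1h1c promoter (chr13:23738557-23738806, plus strand): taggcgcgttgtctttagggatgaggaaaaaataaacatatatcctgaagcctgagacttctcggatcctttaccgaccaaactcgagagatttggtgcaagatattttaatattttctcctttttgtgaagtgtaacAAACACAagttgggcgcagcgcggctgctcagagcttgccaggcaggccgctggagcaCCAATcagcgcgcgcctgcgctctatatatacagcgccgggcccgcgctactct
The H1 box was present in 4 of 5 H1 promoters, those of Hist1h1b, Hist1h1c, Hist1h1d and Hist1h1e, in 5 of 38 cluster promoters and in 6.25% of all 32851 promoters of the same length. CCAAT was found in 30 of 38 cluster promoters against 33.8% of all, and TATAAA in 22 of 38 against 12.4%. The octamer was found in 9 of 38 cluster promoters, 5 of 8 for H2A and 4 of 9 for H2B genes, against 1.6% of all promoters. Windows of some neighbouring genes overlap, so a site can be counted more than once, as the octamer of Hist1h2ae and Hist1h2bg was. Hist1h2be was counted by a promoter without the octamer, while its other promoter holds it. TTTNNCGC was found in 6 of 38 against 4.28%. These motif matches are descriptions of sequence: the H1 box was shared by 3 H1 genes that rose and by Hist1h1c, and it was not matched in Hist1h1a, which rose. Of the 6 variant promoters in the table, 5 held CCAAT, 1 held TATAAA, 1 held the octamer and 1 held AAACACA.

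Of the core histones of the clusters, Hist3h2a (chr11:58954685-58956830), an H2A gene outside the main cluster, was lower in mTO-iTreg than in day 0 cells. It had 25.9, 12.4 and 37.2 normalized counts in mTO-iTreg, 44.3, 44.1 and 46.9 in TGFβ-iTreg and 87.7, 99.5 and 91.8 in day 0 libraries. The 3 groups did not overlap. Hist3h2a shares its position with Trim17 on the same strand, a gene not in the table, although no window at the end of its transcript occurs in another gene. Its level in mTO-iTreg cells was 0.271 times that in day 0 cells (log2 difference -1.97 ± 0.42, SE; adjusted p = 0.0027), a fall that passed under each of 19 alternative settings. In TGFβ-iTreg cells it was 0.485 times the day 0 level, and this did not pass (adjusted p = 0.11; 0.042 in a fit of these groups alone).

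Its neighbour Hist3h2ba (chr11:58948920-58949533), an H2B gene, had 6.14, 39.7 and 13.3 normalized counts in mTO-iTreg, 7.38, 16.3 and 2.47 in TGFβ-iTreg and 28.1, 59.1 and 43.3 in day 0 libraries. The TGFβ-iTreg libraries lay below all day 0 libraries, and mTO-iTreg replicate 2 lay within the day 0 range. The level in TGFβ-iTreg cells was 0.20 times that in day 0 cells (log2 difference -2.42 ± 0.76, SE; adjusted p = 0.04). It passed in 10 of 19 alternatives, not without TGFβ-iTreg replicate 1 (0.079) or 3 (0.14), nor without day 0 replicate 1 (0.057), 2 (0.12) or 3 (adjusted p = 0.087).

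Hist2h3c1 (chr3:96246685-96248509), an H3 gene, went the other way from most cluster genes between the iTreg groups. It had 0, 4.96 and 0 normalized counts in mTO-iTreg, 44.3, 36.6 and 88.4 in TGFβ-iTreg and 56.1, 0 and 8.44 in day 0 libraries. The mTO-iTreg libraries lay below all TGFβ-iTreg libraries, and the day 0 libraries overlapped both groups. Its level in mTO-iTreg cells was 0.0293 times that in TGFβ-iTreg cells (log2 difference -4.88 ± 1.22, SE; adjusted p = 0.0095), from 8 against 251 counts, and it passed under each of 19 alternatives. Against day 0 cells neither iTreg group passed, but mTO-iTreg cells were lower without day 0 replicate 2 (adjusted p = 0.014) and TGFβ-iTreg cells were higher without day 0 replicate 1 (adjusted p = 0.031). All windows at its transcript's end occur in another gene's transcripts, and it overlaps Gm20634 on the same strand. Which gene holds the windows was not recorded, so the division of reads is uncertain. Hist2h3c2, another H3 gene on the same chromosome, had 0, 7.44 and 0 in mTO-iTreg, 0, 6.1 and 3.46 in TGFβ-iTreg and 0, 16.1 and 7.38 in day 0 libraries, and passed in no comparison.

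The other calls among cluster genes rest on few counts. Hist1h2bb had 10.9, 9.93 and 12 normalized counts in mTO-iTreg, 2.46, 0 and 0.988 in TGFβ-iTreg and 0, 0 and 1.05 in day 0 libraries. Hist1h2ab had 15, 5.58 and 7.97 in mTO-iTreg, 0, 0.678 and 1.48 in TGFβ-iTreg and 0, 2.69 and 0 in day 0 libraries. Both passed the filter through mTO-iTreg libraries alone. That alone places every mTO-iTreg library at 5 or more and all others below 5, so the separation of the groups is no finding. Their p-values are therefore not given, and these values are a description. Hist1h3i and Hist1h4d rose in mTO-iTreg against TGFβ-iTreg cells (adjusted p = 0.047 and 0.043), from 61 against 3 and 71 against 10 counts, and passed in 7 and 8 of 18 alternatives. Replicate 1 of mTO-iTreg held 43 of the 61 and 38 of the 71 counts, and without it the adjusted p was 0.22 and 0.18. Hist1h3i also did not pass without day 0 replicate 3 (adjusted p = 0.052), and 82.1% of the windows at its transcript's end occur in other genes. Hist1h4c fell in TGFβ-iTreg against day 0 cells (adjusted p = 0.045), from 2 against 18 counts, and passed in 4 of 18 alternatives, none of them with a library left out. Hist4h4, an H4 gene, had 15.7, 29.2 and 11.3 normalized counts in mTO-iTreg, 2.46, 6.78 and 2.96 in TGFβ-iTreg and 24.6, 24.2 and 8.44 in day 0 libraries. The TGFβ-iTreg libraries lay below all others, without passing against day 0 (adjusted p = 0.07) or, for mTO-iTreg over TGFβ-iTreg, between the iTreg groups (adjusted p = 0.053). Without day 0 replicate 3 both passed (adjusted p = 0.042 and 0.045).

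**Figure D2:**
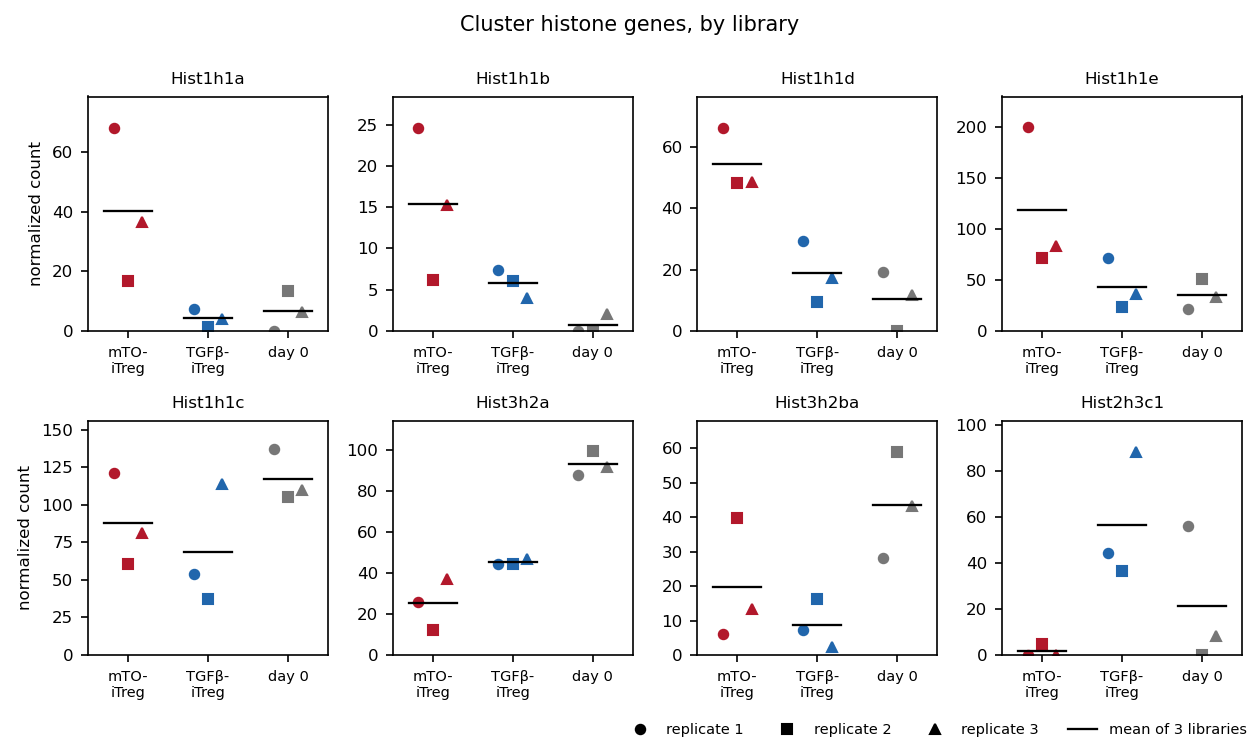
Normalized counts of the 5 H1 genes and of Hist3h2a, Hist3h2ba and Hist2h3c1 (vertical axes from 0) in the 3 libraries of each group, with marker shapes for replicates and a line at the group mean. Hist3h2a is at 12.4 to 37.2 in mTO-iTreg, 44.1 to 46.9 in TGFβ-iTreg and 87.7 to 99.5 in day 0 libraries, and mTO-iTreg replicate 1 is the highest library for Hist1h1a, Hist1h1b, Hist1h1d and Hist1h1e.

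By histone type, the summed cluster levels had unlike orders among the groups. H1 genes summed to 316 ± 144.8 in mTO-iTreg, 140.8 ± 55.06 in TGFβ-iTreg and 170 ± 6.863 in day 0 cells (SD, n = 3 each). H2A genes summed to 87.6 ± 45.96 in mTO-iTreg, 66.15 ± 1.81 in TGFβ-iTreg and 129.1 ± 14.29 in day 0 cells. H4 genes summed to 76.62 ± 14.8 in mTO-iTreg, 32.97 ± 10.57 in TGFβ-iTreg and 83.72 ± 30.12 in day 0 cells. H2B genes were at 148.7 ± 63.11 in mTO-iTreg, 54.43 ± 12.47 in TGFβ-iTreg and 180.1 ± 71.26 in day 0 cells, and for H2B and H4 the TGFβ-iTreg libraries lay below all other libraries. H3 genes summed to 37.89 ± 11.07 in mTO-iTreg, 65.88 ± 29.81 in TGFβ-iTreg and 53.22 ± 30.22 in day 0 cells, where Hist2h3c1 made up most of the TGFβ-iTreg sum. Libraries of the mTO-iTreg group differed among themselves: replicate 2 was the lowest of its group for 19 of 26 tested cluster genes, and replicate 1 was the highest for 14.

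Genes of the cell cycle were set beside these values from lists of named genes. S-phase genes (DNA replication enzymes and their regulators) rose in mTO-iTreg against day 0 cells in 30 of 41 tested cases, with none falling, and in TGFβ-iTreg against day 0 cells in 23 of 41, with none falling, where 19.4% and 9.78% of all genes rose. Between mTO-iTreg and TGFβ-iTreg cells 5 rose and 2 fell, or 17.1%, below the 26.6% of all genes. Their summed level was 11157, 10956 and 9087 in mTO-iTreg, 10692, 10643 and 8886 in TGFβ-iTreg and 4616, 4986 and 5379 in day 0 libraries. G2/M genes (mitotic cyclins, kinases and motors) rose in 16 of 16 cases in mTO-iTreg and in 15 of 16 in TGFβ-iTreg cells against day 0, and in 5 of 16 in mTO-iTreg against TGFβ-iTreg cells, where 14.9% of all genes rose. Their summed level was 8564, 3997 and 7633 in mTO-iTreg, 3306, 3179 and 2570 in TGFβ-iTreg and 304, 266 and 557 in day 0 libraries. The mTO-iTreg replicate with the lowest cluster sum, replicate 2, also had the lowest G2/M sum of its group, but not the lowest S-phase sum. The part of cell cycle composition in the histone results was not tested.

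**Figure D3:**
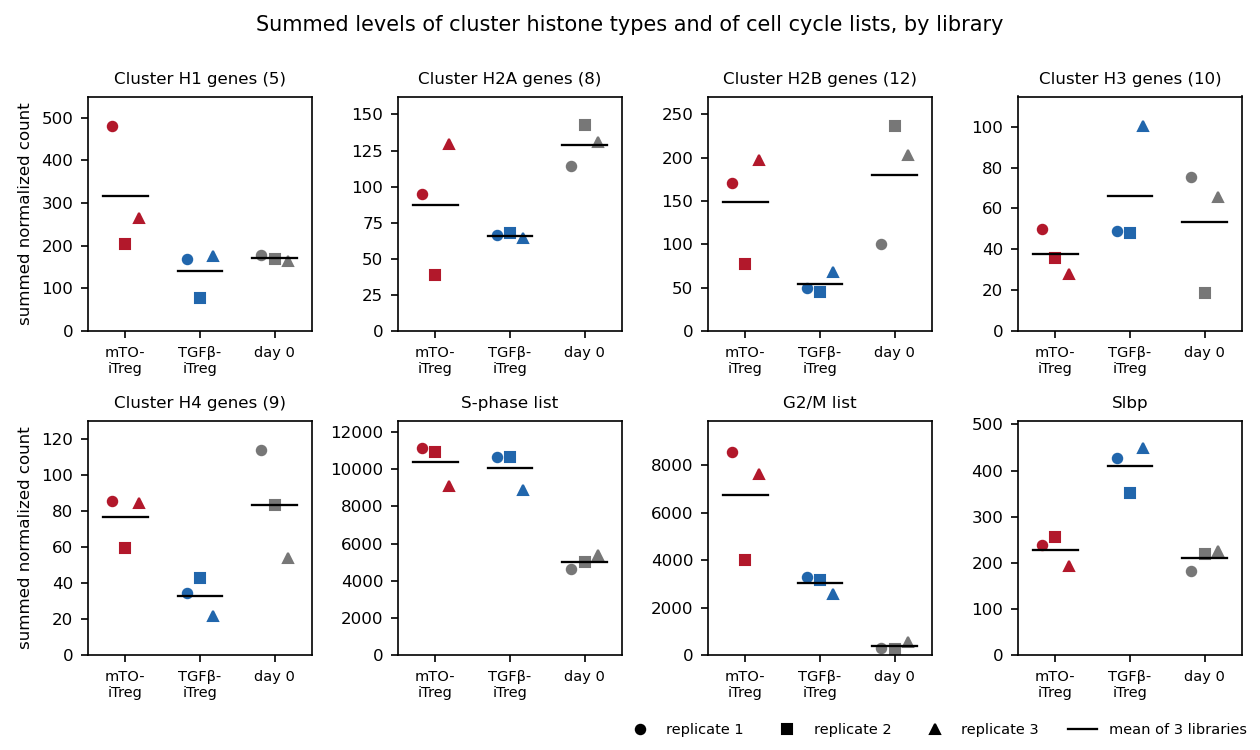
Summed normalized counts (vertical axes from 0) of the cluster genes of each histone type, with the number of genes, and of the S-phase and G2/M lists, and the level of Slbp, in the 3 libraries of each group, with a line at the group mean. The S-phase sums lie at 8886 to 11157 in both iTreg groups and at 4616 to 5379 in day 0 libraries, whereas the H2B and H4 cluster sums are lowest in TGFβ-iTreg libraries.

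The machinery that makes and degrades cluster mRNAs was called at shares near those of all genes. Of 21 tested genes, 2 rose and 4 fell in mTO-iTreg against day 0 cells, 2 rose and 1 fell in TGFβ-iTreg against day 0 cells, and 2 rose and 4 fell in mTO-iTreg against TGFβ-iTreg cells, with medians of 0.00, -0.02 and -0.39. These calls are 28.6%, 14.3% and 28.6% of the list, beside 33.9%, 18.6% and 26.6% of all genes. Slbp, which binds the stem-loop, had 238, 256 and 192 normalized counts in mTO-iTreg, 428, 351 and 449 in TGFβ-iTreg and 182, 220 and 226 in day 0 libraries. The TGFβ-iTreg libraries lay above all others, and the other groups overlapped. Slbp was 1.95-fold higher in TGFβ-iTreg than in day 0 cells (adjusted p = 0.0036), and in mTO-iTreg cells it was 0.558 times the TGFβ-iTreg level (adjusted p = 0.0055). Ncbp2, a cap-binding protein of the nucleus, had 94.8, 86.2 and 95 in mTO-iTreg, 362, 253 and 332 in TGFβ-iTreg and 216, 194 and 184 in day 0 libraries. Its 3 groups did not overlap, and mTO-iTreg cells were lower than TGFβ-iTreg (adjusted p = 5.2e-05) and day 0 cells (adjusted p = 0.0013). Cstf2, which takes part in mRNA 3′ end cleavage, was at 85.8 ± 8.75 in mTO-iTreg, 178 ± 9.83 in TGFβ-iTreg and 180 ± 18.3 in day 0 cells (SD, n = 3 each), lower in mTO-iTreg than in both (adjusted p = 0.0033 against TGFβ-iTreg and 0.0021 against day 0). Upf1, a helicase of mRNA decay that acts on histone mRNA when replication stops, was at 180 ± 47.3 in mTO-iTreg, 72.8 ± 27.8 in TGFβ-iTreg and 84.8 ± 12.4 in day 0 cells, higher in mTO-iTreg than in both (adjusted p = 0.011 against TGFβ-iTreg and 0.03 against day 0). Npat, the coactivator of cluster gene transcription, was at 71.4 ± 2.76 in mTO-iTreg, 95.6 ± 5.07 in TGFβ-iTreg and 112 ± 25.7 in day 0 cells and passed in no comparison.

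Histone chaperones and exchange factors were likewise called at shares near those of all genes. Of 30 tested, 9 rose and 3 fell in mTO-iTreg against day 0, 4 rose and 2 fell in TGFβ-iTreg against day 0, and 7 rose and 2 fell in mTO-iTreg against TGFβ-iTreg cells. These calls are 40%, 20% and 30% of the list, beside 33.9%, 18.6% and 26.6% of all genes. Chaf1a, a subunit of the complex that loads histones behind the replication fork, had 47.1, 50.2 and 43.2 normalized counts in mTO-iTreg, 44.3, 23.7 and 23.7 in TGFβ-iTreg and 0, 0 and 2.11 in day 0 libraries. It rose against day 0 in mTO-iTreg (adjusted p = 6.7e-05) and in TGFβ-iTreg cells (adjusted p = 0.00053). Asf1b, which hands H3 and H4 to loading complexes, was 1.94-fold higher in mTO-iTreg (adjusted p = 0.011) and 3.92-fold higher in TGFβ-iTreg than in day 0 cells (adjusted p = 0.00015). Among factors of H2A.Z, Vps72, its chaperone in the exchange complexes, was at 500 ± 32.7 in mTO-iTreg, 228 ± 34 in TGFβ-iTreg and 194 ± 108 in day 0 cells. Vps72 was higher in mTO-iTreg than in TGFβ-iTreg (adjusted p = 0.018) and day 0 cells (adjusted p = 0.0025). Ep400, an ATPase of H2A.Z exchange, was at 471 ± 133 in mTO-iTreg, 815 ± 170 in TGFβ-iTreg and 1032 ± 88.6 in day 0 cells, lower in mTO-iTreg than in TGFβ-iTreg (adjusted p = 0.0088) and day 0 cells (adjusted p = 0.00053).

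The chaperone pair that places the H3f3a and H3f3b product at repeats showed unlike values. Daxx had 497, 667 and 747 normalized counts in mTO-iTreg, 305, 394 and 377 in TGFβ-iTreg and 337, 414 and 383 in day 0 libraries. The mTO-iTreg libraries lay above all others, and Daxx was 1.78-fold higher than in TGFβ-iTreg (adjusted p = 0.0053) and 1.69-fold higher than in day 0 cells (adjusted p = 0.0072). Atrx was at 510 ± 35.7 in mTO-iTreg, 328 ± 19.9 in TGFβ-iTreg and 856 ± 38.2 in day 0 cells, lower in mTO-iTreg (adjusted p = 0.00099) and in TGFβ-iTreg (adjusted p = 2.1e-05) than in day 0 cells. Hjurp, the chaperone of the centromeric H3 variant CENP-A, had 630, 306 and 444 in mTO-iTreg, 34.4, 84.8 and 55.8 in TGFβ-iTreg and 77.2, 59.1 and 83.3 in day 0 libraries. It was 7.89-fold higher in mTO-iTreg than in TGFβ-iTreg cells (adjusted p = 4.2e-05).

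Of 6 listed variant genes whose symbols fall outside the rule, 3 were in the table and 2 were tested, Cenpa and H1f0. Cenpa, which encodes CENP-A, had 2137, 813 and 1784 normalized counts in mTO-iTreg, 401, 483 and 368 in TGFβ-iTreg and 188, 218 and 168 in day 0 libraries. The 3 groups did not overlap, and Cenpa was 8.26-fold higher in mTO-iTreg (adjusted p = 5.3e-06) and 2.18-fold higher in TGFβ-iTreg than in day 0 cells (adjusted p = 0.014). H1f0, a linker histone with a polyadenylated mRNA, had 494, 237 and 383 in mTO-iTreg, 204, 210 and 265 in TGFβ-iTreg and 89.5, 94.1 and 80.2 in day 0 libraries. Every iTreg library lay above every day 0 library, and H1f0 was 4.23-fold higher in mTO-iTreg (adjusted p = 6e-05) and 2.58-fold higher in TGFβ-iTreg than in day 0 cells (adjusted p = 0.0029).

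**Figure D4:**
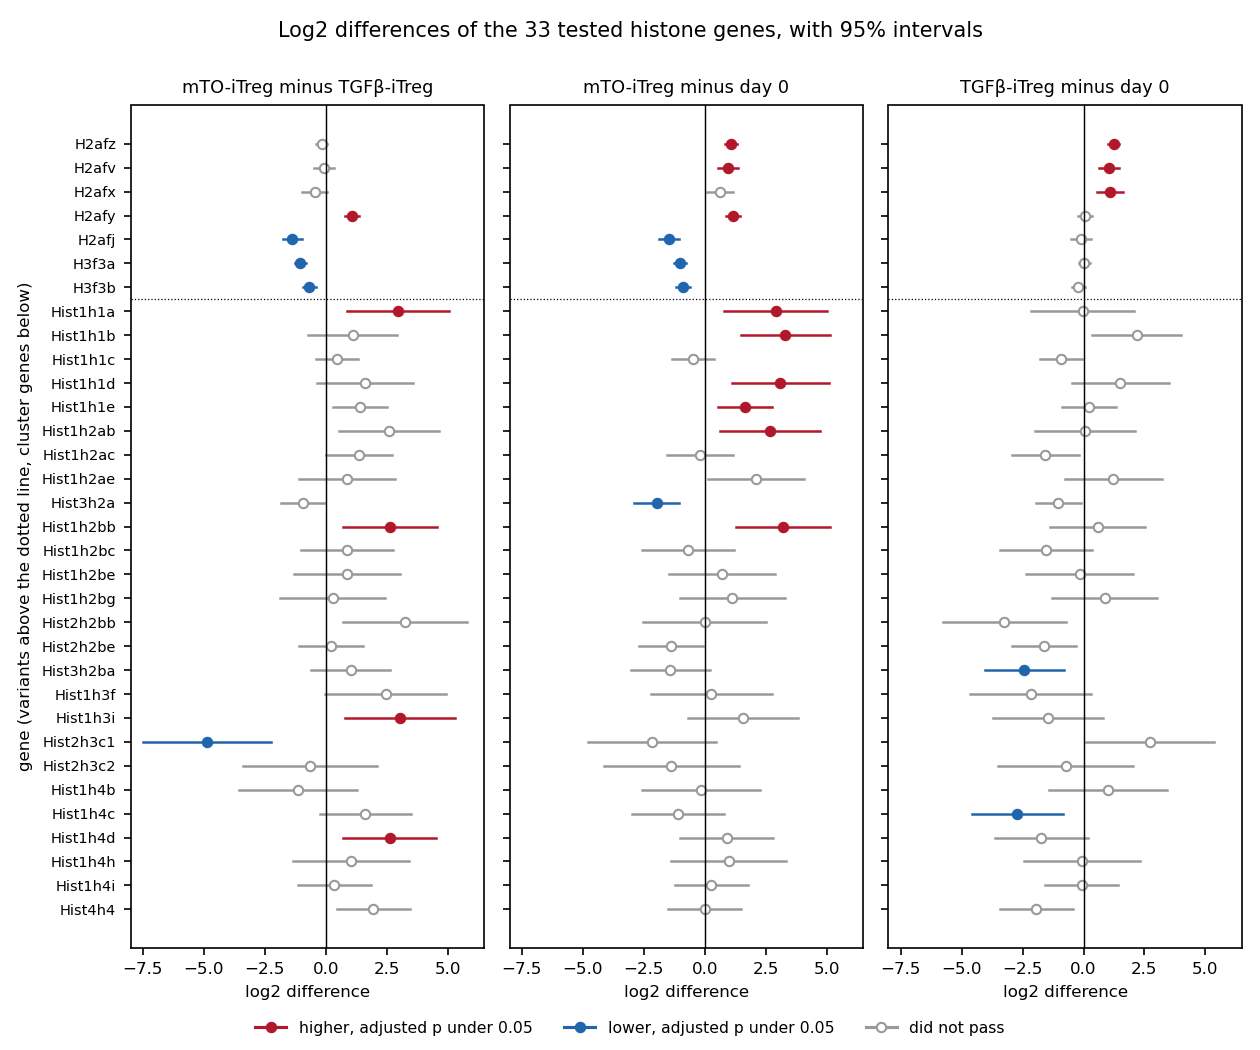
Log2 differences on the scale of log2(normalized count + 1) of the 33 tested histone genes in the 3 comparisons, with 95% intervals from limma; filled markers passed an adjusted p under 0.05. The intervals of the 7 variants are narrow and those of the cluster genes wide. In mTO-iTreg minus TGFβ-iTreg, 22 of 26 cluster genes lie above 0, beside 6085 of 10983 over all genes tested.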

How the data were processed

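The deposited table holds counts per gene that the authors divided by 1 size factor per library (normalized counts; DESeq2, BWA and mm10 per the submitters' processing notes; versions: not given in the sources used here). Each column's unit is recorded as other because the values use decimal commas. Dividing by the value of a single count gave whole numbers, within 0.1, for 100% of values; these are the counts quoted. Of 14912 rows, 296 were 0 throughout and 10983 were tested. Log2(value + 1) was fitted with 3 group means in limma 3.58.1 (R 4.3.3, eBayes with trend, 6 residual degrees of freedom), with Benjamini-Hochberg adjustment over all 10983 rows and a threshold of 0.05; adjusted p-values are limma's. Log2 differences understate changes of rarely read genes, and folds are ratios of group means. The fit was run on simulated data with the same spread for all genes and changes planted only in genes averaging 20 or more. It therefore does not bear on rarely read genes. Libraries were not paired by replicate number in the fit. Correlations of same-numbered deviations were -0.05 to 0.06, and whether same-numbered libraries share animals or batches was not tested. Members and gene lists were chosen with earlier results of these data known. Named were all 7 variants, called cluster genes averaging 20 or more in whichever group was higher, and up to 4 called genes per list and comparison; Hist1h1b, Hist1h1c, Hist2h3c2, Hist4h4, Npat and calls with lower means were added after their values were seen. All 51 members were matched in GENCODE M21 (GRCm38); 38 cluster genes and 6 variants had a RefSeq promoter. Figures used matplotlib 3.10.9; tables used pandas 2.3.3 and numpy 2.4.6 under Python 3.11.15.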

Additional observations from a re-analysis of the deposited data

How the results depend on the processing

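Alternatives were TMM factors, equal library totals, pseudocounts of 0.5 and 5, a filter at 20 or none, the replicate number as a block, fits of 2 groups and leaving out each library. The filter was applied again after a library was left out. Chosen after seeing the data were limma-voom on recovered counts, counts without Hist1h2ab and Hist1h2bb, and a fit lacking day 0 replicate 2 and TGFβ-iTreg replicate 1, the shallowest libraries. A quasi-likelihood count test was not run. Equal totals moved the median log2 difference of all genes to 0.31 for mTO-iTreg over day 0 (0.09 as deposited) and 0.22 for TGFβ-iTreg over day 0 (-0.02 as deposited), and the upward share of calls to 70.4% and 75.4% (57.1% and 52.6% as deposited). Calls of H2afz, H2afv, H2afy, H2afj, H3f3a and H3f3b held in 19 of 19 alternatives. Counts of called variants kept within 1.5 times. For cluster genes rising in mTO-iTreg over day 0, 6 as deposited, leaving out Hist1h2ab and Hist1h2bb gave 4, a filter at 20 gave 2, limma-voom 2, and left-out libraries 0 to 7. For those falling, 1, no filter and the 2 shallowest libraries left out gave 2 each, and left-out libraries 1 to 2. For cluster genes rising in mTO-iTreg over TGFβ-iTreg, 4, pseudocounts of 0.5 and 5 gave 1 and 8, a filter at 20 gave 0, the replicate block 2, and left-out libraries 0 to 7. For those falling in TGFβ-iTreg over day 0, 2, a pseudocount of 5, a filter at 20 and the replicate block gave 1 each, fits of 2 groups gave 4, and equal totals, limma-voom and the shallowest libraries left out gave 0. Left-out libraries gave 0 to 3 there, and 0 to 1 for those rising. The cause was not tested. Uncalled log2 differences changed sign for TGFβ-iTreg over day 0 in H2afj (equal totals 0.15, left-out libraries -0.23 to 0.03), H2afy (left-out libraries -0.07 to 0.17, shallowest left out -0.10), H3f3a (left-out libraries -0.01 to 0.07) and H3f3b (equal totals 0.03), and for mTO-iTreg over TGFβ-iTreg in H2afv (left-out libraries -0.22 to 0.16). With the replicate block H2afx in mTO-iTreg over day 0 passed (adjusted p = 0.04), Hist1h1a in mTO-iTreg over TGFβ-iTreg did not (0.057), and no count of called variants moved by over 1.5 times; same-numbered libraries were closest to each other for 5 of 9.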
